A study of Mus musculus with 8 samples.

Results

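The interleukin 17 (IL-17) family genes Il17a, Il17f, Il17d, Il25, Il17rb and Il17rd were examined in sorted CD4+CD25+ cells, which are enriched for regulatory T cells, from the para-aortic lymph nodes of pregnant mice. The genes were the family's cytokines and receptor chains that the platform annotation gave to a probe set naming 1 gene. All 6 were found, with 1 probe set each, among 6986 genes tested. The family's further members, among them the shared receptor chains Il17ra and Il17rc, were not analysed here.

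The comparison was between 4 arrays labelled Il10-/- and 4 arrays labelled Il10+/+, on the Affymetrix Mouse Gene 2.0 ST platform, with cells taken on day 9.5 after mating. The Il10-/- females lack the anti-inflammatory cytokine interleukin 10, had been backcrossed onto C57BL/6, and drank oxytetracycline at 2 mg/ml against colitis, per the labels' protocols. The Il10+/+ females were C57BL/6 mice with no antibiotic named, so antibiotic and genotype cannot be told apart. Each array held a separate pool of RNA from 2 to 4 mice, and neither maternal age, nor the sire of these pregnancies, nor a treatment with lipopolysaccharide is stated for the samples.

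IL-17A and IL-17F are secreted as homodimers and as a heterodimer, mainly by Th17 cells, gamma delta T cells and innate lymphoid cells, and act on epithelium, stroma and myeloid cells through receptor chains IL-17RA and IL-17RC to recruit neutrophils. IL-25, also called IL-17E, is made chiefly by epithelial tuft cells and signals through IL-17RB paired with IL-17RA to drive type 2 responses. IL-17RD, known as Sef, restrains fibroblast growth factor (FGF) signalling to the kinase ERK. Regulatory T cells normally hold such responses in check, and some can gain IL-17A production under inflammation.

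The members that the results turn on are Il17a, Il17f and Il17rb, and their upstream sequences are shown because Il17a and Il17f lie side by side on chromosome 1 while Il17rb, on chromosome 14, differed in the other direction. Each is the 250 bases before the gene's start in RefSeq (GRCm38.p6), 5′ to 3′ along the gene: Il17a at chr1:20730655-20730904 on the plus strand, Il17f at chr1:20784271-20784520 on the minus strand and Il17rb at chr14:30008897-30009146 on the minus strand. Capitals mark matches, on either strand, to the 6 motifs described after the sequences.
Il17a: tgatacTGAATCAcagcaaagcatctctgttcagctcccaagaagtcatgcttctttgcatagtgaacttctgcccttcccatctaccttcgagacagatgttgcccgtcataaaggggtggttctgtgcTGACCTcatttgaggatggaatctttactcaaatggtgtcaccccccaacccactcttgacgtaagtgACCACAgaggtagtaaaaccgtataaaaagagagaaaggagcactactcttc
Il17f: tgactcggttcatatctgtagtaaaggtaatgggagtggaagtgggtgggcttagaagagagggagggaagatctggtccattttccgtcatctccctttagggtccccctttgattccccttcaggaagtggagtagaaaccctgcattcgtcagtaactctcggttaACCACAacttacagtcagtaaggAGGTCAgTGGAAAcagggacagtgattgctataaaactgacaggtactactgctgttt
Il17rb: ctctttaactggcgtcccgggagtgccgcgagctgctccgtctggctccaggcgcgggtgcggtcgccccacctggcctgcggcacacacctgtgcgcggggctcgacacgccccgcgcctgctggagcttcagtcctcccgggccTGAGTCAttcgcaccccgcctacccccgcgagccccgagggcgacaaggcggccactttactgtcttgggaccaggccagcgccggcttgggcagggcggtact

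The Il17a and Il17f windows each held the ROR half-site AGGTCA, the core bound by the Th17 factor ROR gamma t, at bases -120 to -115 of Il17a on the opposite strand and at -58 to -53 of Il17f. Both also held the RUNX core TGTGGT on the opposite strand, at -52 to -47 of Il17a and at -81 to -76 of Il17f. The half-site occurred in 14.02% and the RUNX core in 14.05% of all 32851 RefSeq windows of this length. The AP-1 motif TGANTCA, present in 6.75% of windows, matched at -244 to -238 of Il17a and at -104 to -98 of Il17rb. The NFAT core TGGAAA, present in 18.6%, matched Il17f at -51 to -46. The STAT motif TTCNNNGAA and the GATA core GATAA, in 7.02% and 22.6% of windows, matched none of these 3 sequences, and no 2 matches overlapped. The Il17rb window was 72.0% G and C with 27 CpG pairs, against 46.0% and 47.2% with 4 CpG pairs each for Il17a and Il17f, and a median of 52.4% G and C over all windows. These matches are descriptions of letters and no binding was measured. A window for Il17d and for Il17rd is also in the RefSeq table and is not printed.

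All 8 arrays were used, with median log2 values between 6.97 and 7.12. Replicate 2 of Il10-/- and replicate 4 of Il10+/+ differed from the rest, with interquartile ranges of 2.15 and 2.17 against 2.32 to 2.58 in the others, and are called the arrays that stood apart. Of 13 genes listed for T cells, 3 were measured: Cd28, Themis and Ptprc, which white blood cells in general express. Of 11 regulatory T cell genes, 4 were measured: Ctla4, Ikzf2, Ikzf4 and Itgae. The mean over these 4 was 10.06 to 10.51 in Il10-/- and 10.36 to 10.49 in Il10+/+ arrays, and all lay above the 95th percentile of the array background described next. Foxp3, Il2ra and Cd4 were not analysed here, so the share of Foxp3+ cells was not checked. Il10 itself read 8.65 to 9.42 in the arrays labelled Il10-/- and 7.50 to 8.51 in those labelled Il10+/+. Which part of Il10 was disrupted is not stated in the labels, so this probe set may read outside it and does not check the labels. In these bulk pools, fewer cells of a type and less RNA per cell cannot be told apart.

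Most of the family gave signals inside the upper range of probe sets for genes that T cells are not known to use. The 230 olfactory receptor genes served as array background, with a median log2 value of 4.93 to 5.11 and a 95th percentile of 6.97 to 7.26 per array. Il17rb stood above at least 97.8% of them in every Il10-/- array and at least 99.1% in every Il10+/+ array. Il17a lay above 93.0% to 98.3% of them in Il10-/- arrays and above 81.3% to 94.8% in Il10+/+ arrays. Il17f lay above 93.0% to 98.3% in Il10-/- and 91.3% to 96.5% in Il10+/+ arrays, Il17d above 95.2% to 96.1% and 94.8% to 95.2%, Il25 above 91.3% to 95.2% and 92.2% to 94.8%, and Il17rd above 90.9% to 95.7% and 91.7% to 93.5%. The table has no detection call, so expression of the 5 genes other than Il17rb is not shown by these levels. Values of different probe sets depend on their probes and give no order of abundance between the genes.

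**Figure D1:**
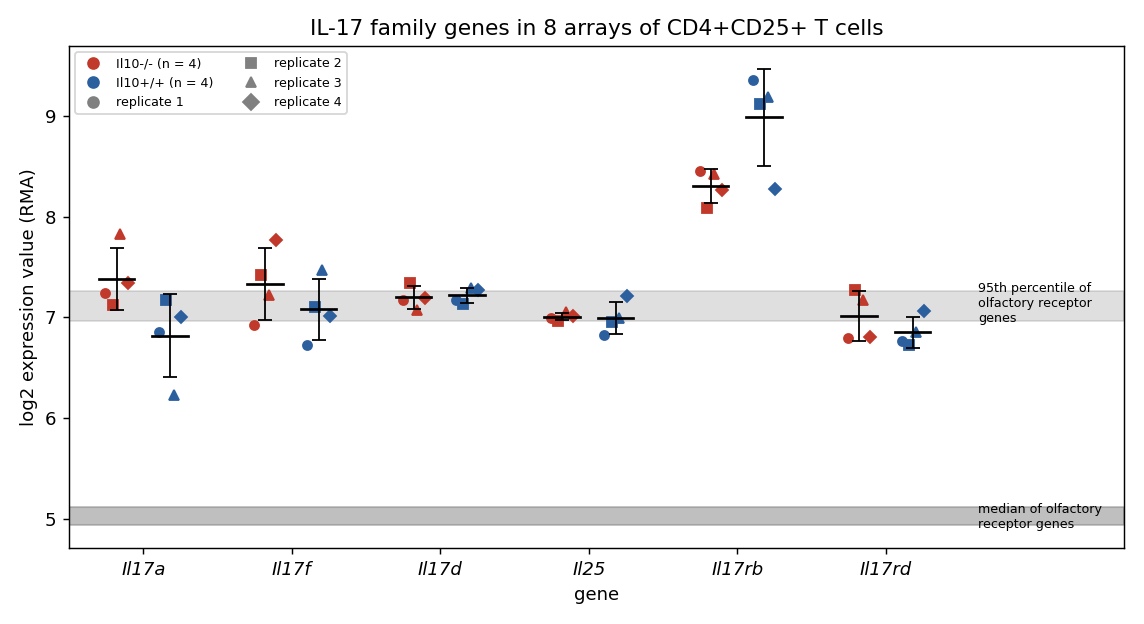
Log2 expression values (vertical axis) of the 6 IL-17 family genes (horizontal axis) in each array, Il10-/- in red left of Il10+/+ in blue, with marker shapes for replicates, bars for the mean and whiskers for 1 SD (n = 4). Grey bands give the range over arrays of the median (4.93 to 5.11) and of the 95th percentile (6.97 to 7.26) of 230 olfactory receptor genes; Il17rb is above the upper band in all 8 arrays, and heights are not comparable between genes.

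Il17rb, the receptor chain that binds IL-25, was the member furthest from zero difference, and it read lower in the arrays labelled Il10-/-. The Il10-/- arrays gave log2 values of 8.46, 8.09, 8.42 and 8.27 for replicates 1 to 4, and the Il10+/+ arrays gave 9.36, 9.12, 9.19 and 8.28. Il10+/+ replicates 1, 2 and 3 were above every Il10-/- array, while Il10+/+ replicate 4, one of the arrays that stood apart, lay among the Il10-/- arrays. The means were 8.31 ± 0.17 in Il10-/- and 8.99 ± 0.48 in Il10+/+ (SD, n = 4 each), which set Il10-/- 1.60-fold lower (log2 difference -0.68, SE 0.21, 95% interval -1.14 to -0.22). Over all genes it missed limma's threshold (adjusted p = 0.742, unadjusted p = 0.00801), and the exact two-sided permutation test over arrays gave p = 0.0857. Without Il10+/+ replicate 4 the difference was -0.92 (limma, adjusted p = 0.0581), with the remaining Il10+/+ arrays at 9.23 ± 0.12 (SD, n = 3). Leaving out each of the 8 arrays in turn, the difference ranged from -0.92 to -0.56. Without both arrays that stood apart it was -0.84 (limma, adjusted p = 0.110). In all 18 alternatives tried, the sign was negative and limma's adjusted p lay between 0.0581 and 1.00. Some of these, such as other probe set rules for a gene with 1 probe set, cannot change the difference and say nothing about its sign.

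Il25, which encodes the ligand of that receptor, overlapped between the groups. It ranged from 6.97 to 7.06 in Il10-/- and from 6.83 to 7.21 in Il10+/+ arrays, and the Il10-/- range lay inside that of Il10+/+. The log2 difference was 0.01 (SE 0.10), and its 95% interval of -0.22 to 0.24 corresponds to 0.859-fold to 1.18-fold (limma, adjusted p = 0.999). Its signal sat near the 95th percentile of the background in both groups.

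Il17a, the signature cytokine gene of Th17 cells, read higher in the arrays labelled Il10-/-, with slight overlap. The Il10-/- arrays gave 7.25, 7.12, 7.83 and 7.34 for replicates 1 to 4, and the Il10+/+ arrays gave 6.86, 7.18, 6.23 and 7.01. The overlap came from Il10-/- replicate 2, just below Il10+/+ replicate 2, and the extremes were replicate 3 of each group. The means were 7.39 ± 0.31 in Il10-/- and 6.82 ± 0.41 in Il10+/+ (SD, n = 4 each). The 95% interval of the difference of 0.57 was 0.10 to 1.03, or 1.07-fold to 2.05-fold (limma, adjusted p = 0.873, unadjusted p = 0.0213). The exact two-sided permutation test over arrays gave p = 0.0571. Leaving out Il10+/+ replicate 3 gave 0.37, and leaving out Il10-/- replicate 3 gave 0.42 (limma, adjusted p = 1.00 and 0.998).

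Il17f, the neighbouring cytokine gene and partner of IL-17A in the heterodimer, gave 6.92, 7.42, 7.22 and 7.77 in Il10-/- replicates 1 to 4 and 6.73, 7.11, 7.47 and 7.01 in Il10+/+ replicates 1 to 4. The groups overlapped widely, with the lowest Il10-/- array below 3 of the Il10+/+ arrays. The log2 difference was 0.25 (SE 0.19, 95% interval -0.18 to 0.68; limma, adjusted p = 0.999; exact permutation p = 0.343). Il10+/+ replicate 3 was lowest of all for Il17a and highest of its group for Il17f, while Il10-/- replicate 4 was highest of all for Il17f and ranked just after Il10-/- replicate 3 for Il17a. Over the 8 arrays, as deviations from the group means, Il17a and Il17f had Pearson's r = -0.390 and Spearman's rho = -0.357 (exact permutation within groups, p = 0.366 and 0.448). Leaving out the 2 arrays farthest from the median of Il17a took r to 0.0089.

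**Figure D2:**
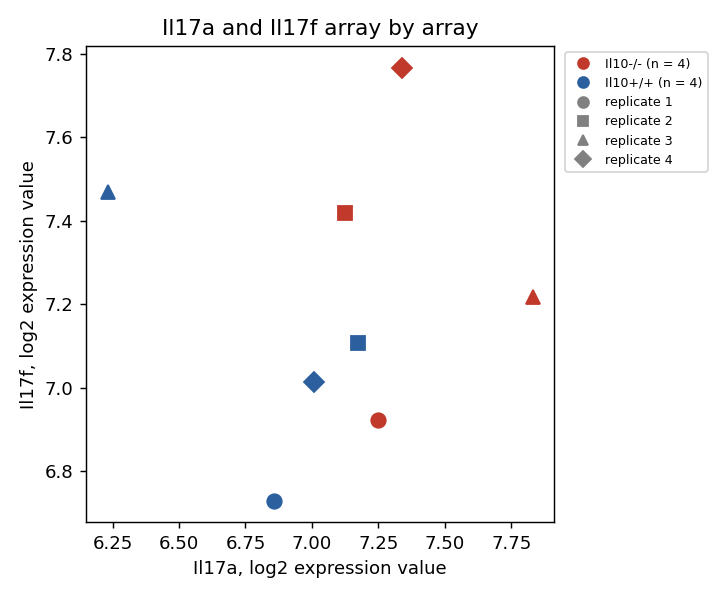
Il17a (horizontal axis) against Il17f (vertical axis), both as log2 expression values, for the 4 Il10-/- arrays (red) and the 4 Il10+/+ arrays (blue), with marker shapes for replicates. Il10+/+ replicate 3 is at the far left, at 6.23 for Il17a, yet at 7.47 for Il17f, and Il10-/- replicate 3 is at the far right, at 7.83 for Il17a.

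Il17d, a cytokine gene described mainly outside the immune system, overlapped between groups. It ranged from 7.07 to 7.35 in Il10-/- and from 7.14 to 7.30 in Il10+/+ arrays, with a log2 difference of -0.02 (SE 0.10, 95% interval -0.24 to 0.20). The Il10+/+ range lay within the Il10-/- range. Among the 15 pairs of members, Il17a with Il17d had the smallest permutation p over deviations from the group means. There Pearson's r was -0.744 and Spearman's rho -0.810 (exact permutation p = 0.0451 and 0.0312, adjusted over the 15 pairs 0.451 and 0.469), and r was -0.622 without the 2 arrays farthest from the median of Il17a. No pair passed the adjustment.

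Il17rd, the receptor-like inhibitor of FGF signalling, gave 6.80, 7.27, 7.18 and 6.80 in Il10-/- replicates 1 to 4 and 6.77, 6.72, 6.85 and 7.07 in Il10+/+ replicates 1 to 4. Replicates 2 and 3 of Il10-/- exceeded every Il10+/+ array, and replicates 1 and 4 lay among them. The log2 difference was 0.16 (SE 0.14, 95% interval -0.15 to 0.46; limma, adjusted p = 0.999; exact permutation p = 0.257).

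None of the 6 genes passed limma's test over all genes, where 2 genes in all, or 0.0286%, did. At an unadjusted p under 0.05, 1 of 6 was higher in Il10-/- (Il17a, against 3.19% of all genes) and 1 of 6 was lower (Il17rb, against 1.59%). In 0 of 6 were the groups free of overlap, against 1.83% of all genes with every Il10-/- array higher and 1.09% with every one lower. A difference at least as large in either direction as that of Il17rb was found in 0 of the 230 olfactory receptor genes. It was found in 46 of all genes (0.66%), Il17rb included. One as large as that of Il17a was found in 1 olfactory receptor gene and in 82 of all genes (1.17%), Il17a included. Most olfactory receptor genes read far lower than Il17rb, and most also read lower than Il17a. Their spread is therefore no measure for the size of either difference. The median difference was 0.0025 over all genes and -0.03 over the olfactory receptor genes.

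**Figure D3:**
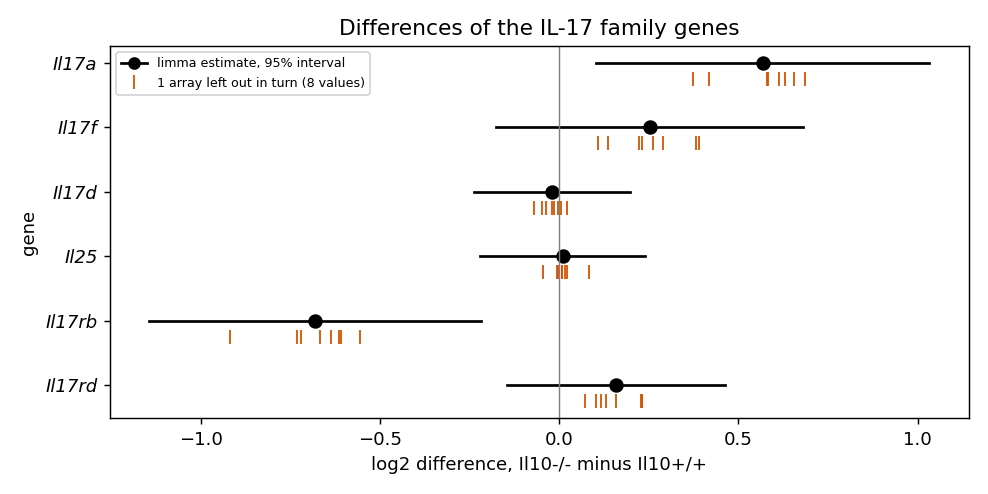
Log2 difference of each IL-17 family gene (vertical axis: gene), Il10-/- minus Il10+/+, as limma's estimate with its 95% interval (black), and the 8 estimates with 1 array left out in turn (orange ticks). The intervals of Il17a (0.10 to 1.03) and Il17rb (-1.14 to -0.22) exclude 0 before adjustment over all genes, and those of the other 4 genes include it.

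Around the cytokines, genes of the Th17 programme were described by a list of 39, of which 17 were measured apart from the members. None passed limma's test over all genes, in either direction, 1 had an unadjusted p under 0.05, and 11 of 17 were positive (median 0.12), against 50.8% of all genes. Without Il10-/- replicate 3 the list's median was 0.026, with 9 of 17 positive. Il1r1, the IL-1 receptor that promotes Th17 differentiation, read 9.004, 10.21, 9.90 and 9.70 in Il10-/- replicates 1 to 4 and 8.10, 9.19, 8.70 and 9.20 in Il10+/+ replicates 1 to 4. The lowest Il10-/- array lay below 2 Il10+/+ arrays, and the log2 difference was 0.91 (SE 0.29, limma, adjusted p = 0.742). Hif1a, a hypoxia-induced factor that supports Th17 cells, differed by 0.22 and Gpr65, a proton-sensing receptor, by 0.20. Stat3, the transducer of IL-6 and IL-23 signals, differed by -0.10. The cytokine gene Csf2 differed by 0.13, and by -0.056 without Il10-/- replicate 2. The gene for IL-17's frequent companion cytokine, Il22, read 2.77 in Il10-/- and 2.56 in Il10+/+ on average, below the olfactory receptor median.

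Of 49 listed genes of the IL-17 receptor's signalling route, 20 were measured. None passed over all genes, 1 had an unadjusted p under 0.05, and 14 of 20 had a negative difference, against 49.2% of all genes, with a median of -0.12. Without Il10-/- replicate 2, one of the arrays that stood apart, 9 of 20 were negative and the median was 0.0044, and without Il10+/+ replicate 3 the median was -0.047. The feedback RNase gene Zc3h12d was at 9.15, 8.88, 9.02 and 8.97 in Il10-/- replicates 1 to 4, against 9.42, 9.35, 9.29 and 9.08 in Il10+/+ replicates 1 to 4. The highest Il10-/- array exceeded only the lowest Il10+/+ array, and the log2 difference was -0.28 (SE 0.11, limma, adjusted p = 0.884). Tnfaip3, which encodes the ubiquitin-editing inhibitor A20, differed by -0.32, and Traf3ip2, which encodes the adaptor Act1 that joins the receptor to its downstream kinases, by 0.22 (limma, adjusted p = 0.999 for both).

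Of 36 listed genes that tissues switch on in response to IL-17, 14 were measured, with 0 past the test over all genes, 0 at an unadjusted p under 0.05, and a median of 0.06. The median was 0.013 without Il10-/- replicate 2 and 0.0060 without Il10+/+ replicate 2. Only 3 of the 14 had a mean above the background's 95th percentile, averaged over arrays. The IL-10 family cytokine gene Il24 differed by 0.26, the CCR6 ligand gene Ccl20 by -0.23 and Pigr, the transporter of polymeric antibodies, by 0.13. Il24, Ccl20 and Pigr, like Il19, Il20 and Ptgs2 of this list, are on chromosome 1, as is Il10. Il1r1 of the Th17 list and the members Il17a and Il17f are also on this chromosome. Linkage of these genes to the altered Il10 in the backcrossed mice was not tested.

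Of 30 listed genes of the type 2 route downstream of IL-25, 15 were measured and none passed over all genes or at an unadjusted p under 0.05. The difference was negative in 11 of 15, with a median of -0.09, which became -0.018 without Il10-/- replicate 2 and -0.045 without Il10+/+ replicate 3. Stat6, the transducer of IL-4 signals, differed by -0.22, the cytokine gene Il13 by -0.21 and Il7r, the IL-7 receptor, by -0.12. Il4, Il5 and Il9 differed by -0.09, -0.15 and 0.05. Their highest values in any array were 6.41, 6.68 and 5.83, below the background's 95th percentile, so these differences lie within the background range. Il13 averaged 7.17 in Il10-/- and 7.38 in Il10+/+ arrays, close to that percentile. Of the 15 genes, 12 had a mean above it, averaged over arrays. Without Il10+/+ replicate 4 the difference of Il13 was -0.058 and that of Il5 -0.011, and without Il10-/- replicate 2 that of Stat6 was -0.064. These sizes are below that of Il17rb, for which the difference from these genes was not tested.

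Of 37 listed genes of FGF signalling and its feedback, the setting in which IL-17RD acts, 13 were measured, with 0 past the test over all genes, 0 at an unadjusted p under 0.05 and a median of -0.04. With 1 array left out the median ranged from -0.074 to 0.026, and it was above 0 without Il10-/- replicate 2, Il10-/- replicate 3 or Il10+/+ replicate 4. The ERK inhibitor gene Spred2 differed by -0.47 (SE 0.26), where Il10+/+ replicate 4, one of the arrays that stood apart, was highest at 9.28, and by -0.22 without that array. The inhibitor Spry2 differed by 0.27, and by 0.42 without that array, and the kinase Map2k2 by 0.17.

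**Figure D4:**
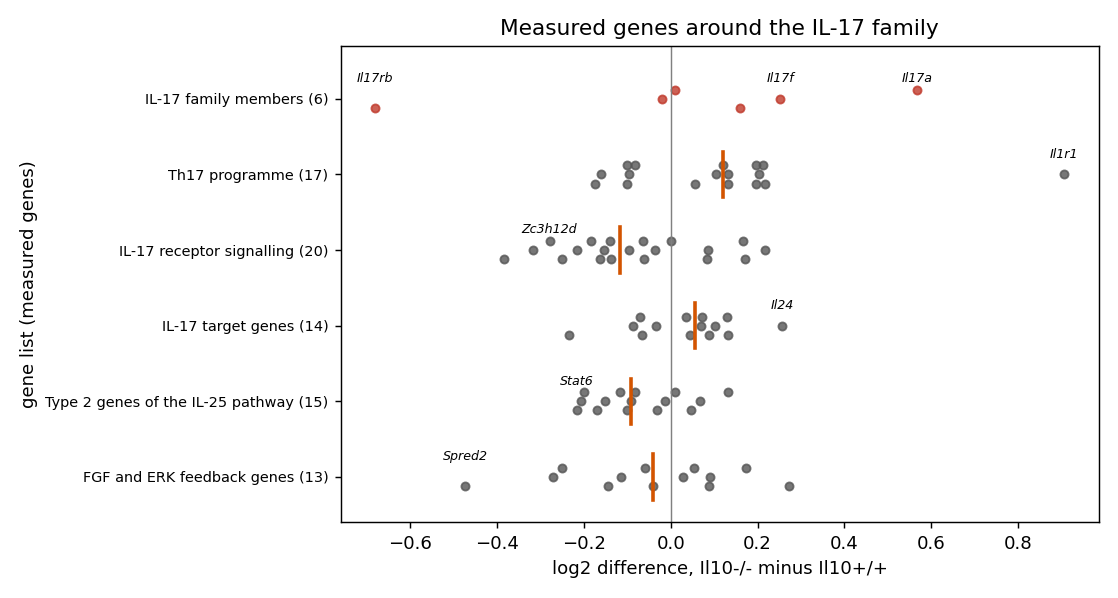
Log2 difference, Il10-/- minus Il10+/+ (horizontal axis), of the 6 IL-17 family members (red) and of every measured gene of 5 lists around them (grey; the number measured is beside each list name), with each list's median in orange. The medians run from -0.12 for receptor signalling to 0.12 for the Th17 programme, against 0.0025 over all genes, and Il1r1 is the farthest point at 0.91.

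Other cells that can accompany a CD4+CD25+ sort also express members of the family, so their markers are given beside the members. Of 13 markers of gamma delta T and other innate IL-17 sources, Il7r, Id2, Blk and Sox13 were measured. Their mean was 9.21 to 9.43 in Il10-/- and 9.22 to 9.54 in Il10+/+ arrays, with a median difference of 0.03. Over the 8 arrays Il7r read 11.46 to 11.87 and Id2 9.80 to 10.21. Blk read 7.26 to 8.53 and Sox13 7.62 to 7.82, so the height of the mean came from Il7r and Id2. Il7r is also in the type 2 list and Blk among the B cell genes, and the mean does not give the share of such cells. Of 8 markers of type 2 innate lymphoid cells, which carry IL-17RB, Il5 alone was measured, at 5.85 to 6.35 in Il10-/- and 5.87 to 6.68 in Il10+/+ arrays, below the background's 95th percentile. The 4 measured B cell genes of 10 were positive in 4 of 4, against 50.8% of all genes. The count was 3 of 4 with 1 or the other of the arrays that stood apart left out and 2 of 4 with both left out. Their mean was 7.24 to 7.53 in Il10-/- and 7.10 to 7.32 in Il10+/+ arrays. Only 2 of the 4, Cd79b and Blk, had a mean above the background's 95th percentile, averaged over arrays. Of 8 natural killer cell markers 3 were measured, with a mean of 7.62 to 8.24 in Il10-/- and 7.45 to 8.41 in Il10+/+ arrays. Of 6 epithelial markers Krt18 and Krt14 were measured, at a mean of 6.38 to 6.71 in Il10-/- and 6.25 to 6.45 in Il10+/+ arrays. Krt18 differed by 0.30 without overlap (limma, adjusted p = 0.866), as did 1.83% of all genes with every Il10-/- array higher. Its lowest Il10-/- array, at 6.558, was barely above its highest Il10+/+ array, at 6.556. Neither Krt18 nor Krt14 had a mean above the background's 95th percentile, averaged over arrays. Macrophage, neutrophil, dendritic cell, stromal and red cell or platelet lists had 4, 4, 1, 5 and 2 measured genes and median differences of 0.02, -0.10, 0.28, -0.10 and 0.07. The part of any of these cells in the values of Il17a or Il17rb was not tested.

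The genes whose array-to-array pattern was most like each member's were sought among 5531 named genes, by Pearson's r of deviations from the group means over the 8 arrays. Being the highest of so many, these values are high by selection and carry no test. For Il17rb they were Crk, an adaptor of signalling kinases (r = 0.980), Tmem70, an assembly factor of the mitochondrial ATP synthase (0.978), and Nisch, which encodes nischarin (0.972). For Il17a they were the zinc finger gene Zfp131 (0.935), the lysosomal sulphatase gene Sgsh (0.915) and Ccdc122 (0.912). For Il17f they were Xkr4 (0.973), the replication repair gene Tonsl (0.968) and the cell cycle regulator Rgcc (0.939). Il17d was closest to Sdr9c7, Pxdn and Pdlim7 (0.989, 0.987 and 0.983), Il25 to Cd55, Arsg and Iba57 (0.982, 0.963 and 0.963), and Il17rd to Allc, Cpa6 and Krtap9-3 (0.981, 0.972 and 0.959). No member was among another member's 3 closest genes.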

How the data were processed

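The deposited log2 values came from the authors' import of the CEL files into Partek Genomics Suite, with RMA (robust multi-array average) background correction, correction for GC content and mean summarization over probes, as the series' design text states. Affymetrix Expression Console is a further tool given in the submitters' processing notes. Program versions, the genome build of the probe sets and the log base are not stated in the labels, and the log2 scale was taken from the range of the values. Of 16378 probe sets, 7358 named 1 gene, 456 several and 8564 none. Symbols were updated by Entrez identifier to RefSeq (GRCm38.p6), where 7310 matched, and the probe set of highest mean was kept where a gene had several. This gave 6986 genes, and 99.6% of those with a known chromosome were on 1 or 10 to 15, so each gene list was measured in part.

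The groups were compared with limma 3.58.1 in R 4.3.3 (lmFit and eBayes), without a filter on signal. Benjamini-Hochberg adjustment ran over every gene tested, with a threshold of 0.05. The exact permutation test over the 4 and 4 arrays was two-sided and cannot go below 0.0286. The fit was tested on simulated data. The number of arrays limits the precision. The labels number the replicates without stating a pairing, and the main fit did not pair them. Deviations from the group means of same-numbered arrays correlated at 0.0528, -0.321, 0.0274 and -0.186. With so few arrays these values do not settle whether arrays were paired. The members, the lists and the test were chosen with earlier results of these data known. Named genes were the 6 members, the 3 genes of smallest unadjusted p in each pathway list, the 3 genes most like each member, and neighbours by position. Other list genes were named for their role, and Krt18 and the pair of Il17a and Il17d were picked from their values. Alternatives covered other normalizations, a filter on dim genes, other probe set rules, other limma settings, a replicate block, a second background, and leaving arrays out.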

Additional observations from a re-analysis of the deposited data

How the results depend on the processing

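0 of the 6 members passed limma's threshold in the main fit (2 at an unadjusted p under 0.05) or in any of 18 alternatives, and Il17a, Il17f, Il17rb and Il17rd kept their direction in all of them. By design, the members' differences stay the same under other probe set rules, the filter on dim genes and the fit over all probe sets. The same holds for the trend and robust settings and the replicate block, so a direction could change only in the rest. With 1 array left out, Il17a ranged from 0.37 to 0.69, Il17f from 0.11 to 0.39, Il17rb from -0.92 to -0.56 and Il17rd from 0.07 to 0.23. The differences of Il25 and Il17d, at 0.01 and -0.02, changed sign within their error: Il25 was -0.0044 after quantile normalization and -0.0068 with a common median, and ranged from -0.046 to 0.082 with 1 array left out, where Il17d ranged from -0.070 to 0.022. Over the table, 2 genes were called, against 1 with a common median, with array weights, over all probe sets and without both arrays that stood apart, 3 with trend and robust settings, and 1 to 4 with 1 array left out. With the replicate block 1 gene was called and no array correlated best with its own number in the other group. The members' differences are the same under the block, with an adjusted p of 0.773 for Il17rb and 0.999 for Il17a. The median of the FGF list was 0.069 with array weights and 0.064 without both arrays that stood apart, and that of receptor signalling ranged from -0.16 to 0.0044 with 1 array left out, that of the Th17 programme from 0.026 to 0.17, that of the target genes from 0.0060 to 0.085 and that of the type 2 list from -0.11 to -0.018. Of the other genes named from the lists, examined in this way after their values were seen, those that changed sign with 1 array left out were Csf2 (-0.056 to 0.28), Il22 (-0.036 to 0.34), Il4 (-0.21 to 0.014) and Il9 (-0.013 to 0.13), and Csf2 was -0.034 with the probe set of lowest mean and Il9 -0.0073 with array weights. The cause of these changes was not tested. Against vomeronasal and taste receptor genes, the members lay 3.31 (Il17a), 3.42 (Il17f), 3.42 (Il17d), 3.21 (Il25), 4.86 (Il17rb) and 3.14 (Il17rd) log2 units above the background median, in place of 2.09, 2.19, 2.19, 1.99, 3.63 and 1.92 against olfactory receptor genes. The level over background was not recomputed under the filter on dim genes, which removes part of that background. Signals near background limit what the values of the 5 genes other than Il17rb can show.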

Other observations

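The genes next to the IL-17 family on the chromosomes, taken as the 2 protein-coding genes on each side in RefSeq order, were all measured. Around the Il17a and Il17f pair, Pkhd1, which encodes the ciliary protein fibrocystin, differed by 0.01 and the replication helicase gene Mcm3 by 0.06, and further out Tfap2b differed by -0.13 and the progestin receptor gene Paqr8 by 0.23 (limma, adjusted p = 0.953 for Paqr8). Around Il17rb, the choline dehydrogenase gene Chdh differed by -0.06, the chromatin remodeller subunit gene Actr8 by 0.20, the selenoprotein gene Selenok by 0.04 and the calcium channel gene Cacna1d by 0.18. The 4 genes around Il25 lay between -0.10 and 0.18 and the 4 around Il17d between -0.07 and 0.17. Beside Il17rd lies Hesx1, a homeobox repressor gene, at 6.39 in Il10-/- and 5.42 in Il10+/+ arrays on average. The difference of 0.97 (SE 0.14) missed limma's threshold (adjusted p = 0.0752). Both means lay below the upper percentile used for the olfactory receptor background, which was 6.97 to 7.26 per array. They are thus within the background range, and expression of Hesx1 is not shown by these levels. The other neighbours of Il17rd, Appl1, Arhgef3 and Tasor, differed by 0.06, -0.15 and -0.02.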
